A study of Mus musculus with 17 samples.

Results

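Interleukin-1 family genes were followed across sorted stem-cell populations of mouse epidermis. The 8 genes were listed by name: the antagonists Il1rn and Il1r2, the receptor chains Il1r1 and Il1rap, and the ligands Il33, Il18, Il1b and Il1a. All 8 were found among the 48820 gene identifiers of the count table, and all 8 passed the filter on low counts that left 30405 genes for testing. The list was chosen by name with earlier results known, and in part selected on the levels of Il1rn and Il1r2 in WT Lrig1 and WT Lgr6 cells set against WT Lgr5 cells. Member values in those 2 comparisons are therefore given as levels and folds, with no test, and counts past the threshold there are only a description.

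The series measured RNA from 3 epidermal populations with and without Pelo, the gene of the ribosome rescue factor Pelota. Every mouse was C57BL/6, aged 3 months, had been given 4-hydroxytamoxifen and carried an EGFP-CreERT2 cassette at Lrig1, Lgr6 or Lgr5. That allele both marked the cells with GFP and drove recombination, so Pelo was targeted in the cells that were sorted. Each library came from 1000 GFP-positive cells prepared by the full-length method of Picelli and colleagues. Mutant mice were Pelo fl/fl and their libraries are labelled Pelo -/-, with 3 libraries each for Lrig1, Lgr6 and Lgr5 cells. Control mice were Pelo fl/+ and their libraries are labelled WT, with 2 libraries for Lrig1 cells and 3 each for Lgr6 and Lgr5 cells. The WT groups therefore also carried a floxed allele and the Cre, and had received the drug. Lrig1 and Lgr6 mark cells of the upper hair follicle and its junction with the epidermis and sebaceous gland, and Lgr5 marks cells of the lower follicle in resting skin.

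Interleukin-1 signals through a receptor built of the ligand-binding chain Il1r1 and the shared accessory chain Il1rap. The agonists Il1a and Il1b bind Il1r1, Il1rn encodes a receptor antagonist that occupies the same site without signalling, and Il1r2 encodes a decoy receptor that binds ligand but lacks the signalling domain. Il33 and Il18 act through receptors of their own, and keratinocytes are known sources of Il1a, Il1rn, Il33 and Il18.

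Library totals were 9647507 to 17219054 counts in the 6 Lgr5 libraries and 13333497 to 28098841 counts in the other 11. Pelo itself had 3.82, 0.483 and 0.857 CPM (library-size-scaled counts) in the Lrig1 libraries labelled Pelo -/-, against 6.05 and 3.72 CPM in WT Lrig1 libraries. Its values overlapped between genotypes in Lgr6 cells (3.10 to 4.94 CPM in libraries labelled Pelo -/-, 2.02 to 5.39 CPM in WT) and in Lgr5 cells (11.8 to 23.6 CPM in libraries labelled Pelo -/-, 5.90 to 17.4 CPM in WT). The sources used here do not give the deleted stretch or whether counted reads lie in it, so genotypes below are those of the labels. Lgr5 had 276 to 570 CPM in the Lgr5 libraries and at most 29.4 CPM elsewhere. Summed over 5 markers, all with counts, basal keratinocyte RNA was 11333 to 20794 CPM in the Lrig1 and Lgr6 libraries and 1746 to 5388 CPM in the Lgr5 libraries. T cell markers (7 of 7 with counts) summed to 14.0 to 67.2 CPM in the 11 Lrig1 and Lgr6 libraries and 2.63 to 13.5 CPM in the Lgr5 libraries. The single T cell markers did not all follow the sum. Of 6 tested, 1 was higher and 0 lower than in Lgr5 cells in each Pelo -/- comparison (edgeR, adjusted p under 0.05). The median log2 fold change over Lgr5 cells was 1.17 (Lrig1) and 0.40 (Lgr6) in Pelo -/- cells, and -1.27 and 2.25 in WT cells. Fibroblast sums (5 markers, with Lum at 0 in Pelo -/- Lrig1 and Dcn at 0 in WT Lrig1 libraries) were at most 12.1 CPM in the 11 and 31.7 to 65.8 CPM in the Lgr5 libraries. Melanocyte sums (6 markers, with Mlana at 0 in WT Lrig1 and Pelo -/- Lgr6 libraries) were at most 38.2 CPM in the 11 and 53.2 to 309 CPM in the Lgr5 libraries. The part of these differences in the population results below was not tested.

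All 8 genes matched a promoter window in RefSeq (GRCm38.p6), taken from 250 bases before to 50 bases after an annotated start, and some had several starts, for 12 windows in all. The windows of Il1rn and Il1r2 that follow are shown because these 2 genes differed most between populations. The Il1rn window shown lies at chr2:24336610-24336909 on the plus strand. Its capitals mark 1 match to the AP-1 motif TGANTCA, which begins at position -141 from the start. Il1rn also had windows further downstream, none with a TGANTCA match, and the window at chr2:24345121-24345420 held a match to TATAAA. The Il1r2 window lies at chr1:40085843-40086142 on the plus strand, downstream of the gene's outermost annotated start, and its capitals mark 2 matches to the E-box CACGTG.

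Il1rn: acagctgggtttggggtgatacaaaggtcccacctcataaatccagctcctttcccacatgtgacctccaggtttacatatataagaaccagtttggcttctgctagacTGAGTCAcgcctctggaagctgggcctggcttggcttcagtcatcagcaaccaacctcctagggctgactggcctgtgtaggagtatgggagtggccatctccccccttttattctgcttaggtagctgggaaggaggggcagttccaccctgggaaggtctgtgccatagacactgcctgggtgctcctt

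Il1r2: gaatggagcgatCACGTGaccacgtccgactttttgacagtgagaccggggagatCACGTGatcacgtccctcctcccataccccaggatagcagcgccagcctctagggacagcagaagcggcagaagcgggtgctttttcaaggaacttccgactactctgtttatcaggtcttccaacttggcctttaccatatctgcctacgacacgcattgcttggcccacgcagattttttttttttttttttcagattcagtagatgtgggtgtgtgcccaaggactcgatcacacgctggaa

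Both strands were searched for 4 motifs, and neither window shown held a match to any of the others. TGANTCA was present in 2 of the 12 member windows and in 7.81% of 32851 promoter windows of the genome, CACGTG in 1 member window and 7.15% of all, TATAAA in 6 and 13.6%, and the NF-kB motif in 1 and 8.46%. The second member window with TGANTCA belonged to Il1a. No factor's binding was measured, and the matches describe these letters only.

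Il1rn, the receptor antagonist, was abundant in Lrig1 and Lgr6 cells, at 105 CPM or more in each library, and scarce in Lgr5 cells, at 4.52 CPM or less. The gene lies on chromosome 2 at 24336853 to 24351494 (GRCm38, plus strand). It had 411, 356 and 211 CPM in Pelo -/- Lrig1 libraries, 554, 249 and 507 CPM in Pelo -/- Lgr6 libraries, and 4.52, 1.84 and 3.92 CPM in Pelo -/- Lgr5 libraries. In WT libraries the values were 605 and 540.0 CPM in Lrig1 cells, 381, 105 and 499.8 CPM in Lgr6 cells, and 1.28, 0.256 and 1.31 CPM in Lgr5 cells. No Lrig1 or Lgr6 library overlapped an Lgr5 library, and the lowest of the 11 was WT Lgr6 replicate 2. Within Pelo -/- cells the log2 fold change was 6.56 ± 0.64 (SE) for Lrig1 over Lgr5 (adjusted p = 6.73e-07) and 6.99 ± 0.65 for Lgr6 over Lgr5 (adjusted p = 2.53e-07), by edgeR's quasi-likelihood test with Benjamini-Hochberg adjustment over all genes. The ratios of mean CPM were 95.2 and 127. The same differences in WT cells were 9.22 ± 0.74 and 8.41 ± 0.71 on the log2 scale. In sorted bulk samples such as these, a difference in the number of expressing cells and a difference in RNA per cell cannot be told apart.

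Il1r2, the decoy receptor, had the largest fold of the 8 genes in each population comparison with Lgr5 cells. It lies on chromosome 1 at 40074079 to 40125231 on the plus strand. Pelo -/- libraries had 671, 465 and 318 CPM in Lrig1 cells, 488, 565 and 321 CPM in Lgr6 cells, and 0.528, 0.355 and 1.88 CPM in Lgr5 cells. WT libraries had 729 and 754 CPM in Lrig1 cells, 386, 235 and 815 CPM in Lgr6 cells, and 0.879, 0 and 2.41 CPM in Lgr5 cells. The library at 0 was WT Lgr5 replicate 2, where a count of 0 allows up to 0.192 CPM (3 counts of its total, counting error only). The 2 sets of libraries were again fully apart, and the 6 Lgr5 libraries held 0 to 44 counts of Il1r2 each. In Pelo -/- cells the log2 fold change was 9.0 ± 0.98 for Lrig1 over Lgr5 (adjusted p = 7.46e-06) and 8.92 ± 0.97 for Lgr6 over Lgr5 (adjusted p = 5.40e-06, edgeR). In WT cells it was 9.37 ± 1.00 and 8.74 ± 0.96.

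Il1r2 and Il1rn are also known as genes of neutrophils and macrophages. The 6 neutrophil markers summed to 0.484 to 2.22 CPM in the 5 Lrig1 libraries, with S100a8 at 0 in both genotypes, Retnlg at 0 in Pelo -/- libraries and S100a9 at 0 in WT libraries. They summed to 0.819 to 2.12 CPM in Pelo -/- Lgr6 cells, 0.828 to 62.3 CPM in WT Lgr6 cells, 3.47 to 8.39 CPM in Pelo -/- Lgr5 cells and 2.50 to 9.46 CPM in WT Lgr5 cells. The 62.3 CPM belonged to WT Lgr6 replicate 2, the library with the lowest Il1rn and Il1r2 among the 11. Langerhans cell and macrophage markers (8 of 8 with counts, except Lyz2 at 0 in WT Lrig1 cells) summed to 61.2 to 107 CPM in Pelo -/- Lrig1 cells, 42.4 to 124 CPM in WT Lrig1 cells, 35.1 to 45.7 CPM in Pelo -/- Lgr6 cells and 129 to 344 CPM in WT Lgr6 cells. The Lgr5 libraries summed to 9.45 to 12.02 CPM (Pelo -/-) and 4.55 to 19.0 CPM (WT). The macrophage sums were thus 35.1 to 344 CPM in the 11 Lrig1 and Lgr6 libraries and 4.55 to 19.0 CPM in the 6 Lgr5 libraries, apart in the same direction as Il1rn and Il1r2. Most of the 8 markers did not share that direction. Their median log2 fold change over Lgr5 cells was -1.21 (Lrig1) and -1.08 (Lgr6) in Pelo -/- cells. In WT cells it was -1.56 and -0.72. Among Pelo -/- cells, 1 marker was called higher in each comparison with Lgr5 and 0 lower (edgeR), so the sums rest on part of the list. Between Pelo -/- Lgr6 and WT Lgr6 cells these sums were also apart. The part of these cells in the Il1rn and Il1r2 levels was not tested.

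**Figure D1:**
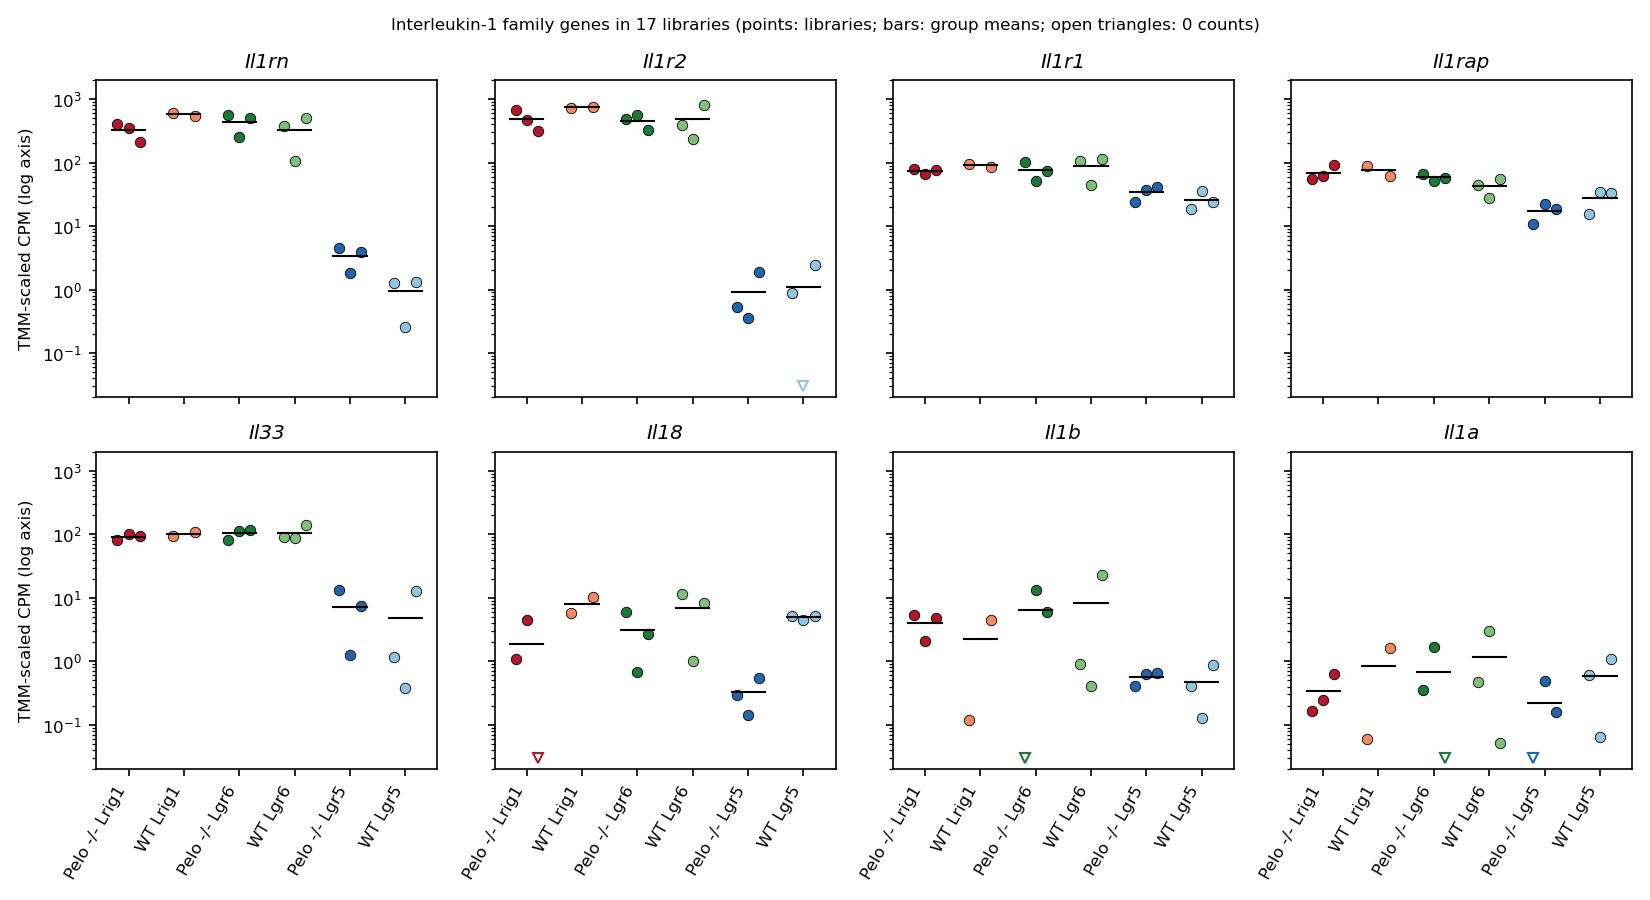
CPM of each of the 8 genes in every library, on a log axis, with the 6 groups along the horizontal axis, 1 point per library, a bar at the group mean and open triangles for 0 counts. Il1rn and Il1r2 sit at 105 to 815 CPM in the 11 Lrig1 and Lgr6 libraries and at no more than 4.52 CPM in the 6 Lgr5 libraries, whereas Il1r1 and Il1rap are present in all 17.

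The signalling receptor Il1r1 was detected in every library and differed far less between populations. It lies on chromosome 1 at 40225080 to 40317257 on the plus strand, on the same chromosome as Il1r2. Pelo -/- libraries had 79.0, 66.8 and 76.1 CPM in Lrig1 cells, 102, 50.6 and 73.6 CPM in Lgr6 cells, and 24.1, 37.1 and 40.8 CPM in Lgr5 cells. WT libraries had 94.99 and 85.4 CPM in Lrig1 cells, 107, 43.8 and 114 CPM in Lgr6 cells, and 18.3, 36.2 and 24.2 CPM in Lgr5 cells. In these scaled values every Lrig1 and Lgr6 library stood above every Lgr5 library. The Pelo -/- differences from Lgr5 nevertheless missed the threshold, at 1.12 ± 0.41 for Lrig1 cells (adjusted p = 0.0931) and 1.15 ± 0.41 for Lgr6 cells (adjusted p = 0.0741, edgeR) on the log2 scale, with 95% intervals of 0.28 to 1.96 and 0.31 to 1.99. In WT cells the differences were 1.78 ± 0.45 and 1.75 ± 0.41. With library totals alone as the scaling, the order of the libraries did not hold. Pelo -/- Lgr5 replicate 3 held 760 of 11769316 counts, a larger share than the 870 of 21408579 in WT Lgr6 replicate 2. Over the other settings the Pelo -/- differences went as low as 0.50 for Lrig1 and 0.46 for Lgr6 cells.

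Il1rap, the accessory chain that Il1r1 shares with the Il33 and IL-36 receptors, was about 4 times as high in mutant Lrig1 cells as in mutant Lgr5 cells. It lies on chromosome 16 at 26581704 to 26730117 on the plus strand. Pelo -/- libraries had 54.9, 62.2 and 92.3 CPM in Lrig1 cells, 66.3, 52.1 and 57.7 CPM in Lgr6 cells, and 10.8, 21.9 and 18.7 CPM in Lgr5 cells. The WT values were 88.9 and 62.3 CPM in Lrig1 cells, 43.6, 27.6 and 55.8 CPM in Lgr6 cells, and 15.4, 34.4 and 33.3 CPM in Lgr5 cells. Mutant Lrig1 and Lgr6 libraries were all above mutant Lgr5 libraries, while WT Lgr6 and WT Lgr5 libraries overlapped. The mutant differences passed the test, with log2 fold changes of 2.02 ± 0.43 for Lrig1 over Lgr5 (adjusted p = 0.00329) and 1.78 ± 0.43 for Lgr6 over Lgr5 (adjusted p = 0.00691, edgeR), or 4.07 and 3.42 times by mean CPM. The second call was lost when library totals alone were used for scaling (1.09, adjusted p = 0.113). In WT cells the differences were 1.45 ± 0.46 and 0.61 ± 0.41, and the second changed sign with library totals as the scaling (-0.38).

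Among the 4 ligands, Il33 was the only one abundant in Lrig1 and Lgr6 cells, at 79.9 CPM or more in each of the 11 libraries. Il33 encodes an alarmin that is stored in the nucleus of epithelial cells, and it lies on chromosome 19 at 29925114 to 29960718 on the plus strand. Pelo -/- libraries had 80.1, 99.4 and 95.6 CPM in Lrig1 cells, 79.9, 115 and 119 CPM in Lgr6 cells, and 13.1, 1.28 and 7.35 CPM in Lgr5 cells. WT libraries had 94.9 and 111 CPM in Lrig1 cells, 90.7, 86.1 and 141 CPM in Lgr6 cells, and 1.15, 0.385 and 12.7 CPM in Lgr5 cells. The 11 Lrig1 and Lgr6 libraries lay close together and apart from the Lgr5 libraries, which spread widely among themselves. In Pelo -/- cells Il33 was higher by 3.65 ± 0.88 in Lrig1 cells (adjusted p = 0.0131) and by 3.84 ± 0.89 in Lgr6 cells (adjusted p = 0.00777, edgeR) than in Lgr5 cells on the log2 scale, or 12.6 and 14.4 times by mean CPM. Both calls rested on Pelo -/- Lgr5 replicate 3, without which the same contrasts gave 3.65 (adjusted p = 0.0711) and 3.84 (adjusted p = 0.0505). In WT cells the differences were 4.43 ± 0.95 and 4.47 ± 0.91.

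Il18, a cytokine that needs cleavage by caspase-1 for its activity, was low everywhere and uneven between replicates. It lies on chromosome 9 at 50554827 to 50581840 on the plus strand. Pelo -/- libraries had 1.09, 4.46 and 0 CPM in Lrig1 cells, 5.91, 0.687 and 2.66 CPM in Lgr6 cells, and 0.293, 0.142 and 0.537 CPM in Lgr5 cells. WT libraries had 5.75 and 10.4 CPM in Lrig1 cells, 11.4, 1.01 and 8.38 CPM in Lgr6 cells, and 5.21, 4.55 and 5.19 CPM in Lgr5 cells. All WT libraries but Lgr6 replicate 2 had 4.55 to 11.4 CPM, and the mutant Lgr5 libraries were low, with 2 to 10 counts each. The count of 0 in Pelo -/- Lrig1 replicate 3 allows up to 0.234 CPM. The mutant differences from Lgr5 were 2.48 ± 1.18 for Lrig1 cells (adjusted p = 0.206) and 3.21 ± 1.20 for Lgr6 cells (adjusted p = 0.0950), and neither passed edgeR's test. DESeq2 called the Lgr6 difference (3.10, adjusted p = 0.0269).

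The classical agonists were near the detection limit in most libraries. Il1b, the secreted agonist made mainly by myeloid cells, lies on chromosome 2 at 129364570 to 129371139 on the minus strand. It ranged over 2.05 to 5.34 CPM in Pelo -/- Lrig1 libraries, 0 to 13.1 CPM in Pelo -/- Lgr6 libraries and 0.411 to 0.644 CPM in Pelo -/- Lgr5 libraries. The WT ranges were 0.120 to 4.40 CPM in Lrig1 cells, 0.403 to 23.2 CPM in Lgr6 cells and 0.128 to 0.875 CPM in Lgr5 cells. The count of 0 in Pelo -/- Lgr6 replicate 1 allows up to 0.176 CPM. The Lgr6 values of Il1b were uneven, at 0, 13.1 and 5.95 CPM in Pelo -/- libraries and 0.895, 0.403 and 23.2 CPM in WT libraries. A single library thus set the WT Lgr6 level of Il1b, and none of its contrasts passed the test. Reads of Il1b may include those of the antisense gene Il1bos, which overlaps it and held 81 counts in the Pelo -/- Lgr6 library with 209 counts of Il1b, since the sources used here do not say whether strand was used in counting. Il1a, the cell-associated agonist, lies on chromosome 2 at 129299610 to 129309972 on the minus strand. It held at most 60 counts in a library, at 0 to 1.69 CPM in the 9 Pelo -/- libraries and 0.0517 to 3.02 CPM in the 8 WT libraries, and its 0 counts in Pelo -/- Lgr6 replicate 3 and Pelo -/- Lgr5 replicate 1 allow up to 0.159 and 0.176 CPM. The antisense gene Gm14023 overlaps it and held up to 145 counts, so no population difference in Il1a can be read from these counts.

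Across the list, 4 of the 8 genes were called higher in Pelo -/- Lrig1 cells than in Pelo -/- Lgr5 cells (Il1rn, Il1r2, Il1rap and Il33) and none lower, where 5.77% of all tested genes were called higher, 2.08% lower and 7.85% in either direction. The same 4 were called higher in Pelo -/- Lgr6 cells than in Pelo -/- Lgr5 cells, with none lower, against 7.23% of all genes called higher, 2.72% lower and 9.95% in either direction. These 2 comparisons share their Lgr5 libraries. Il1rn and Il1r2, among the 4, were in part chosen for the same population difference in WT cells. The counts and medians of the list therefore describe these genes and do not test the list against all genes. The median log2 fold change of the 8 genes was 2.66 and 3.34, beside -0.64 and -0.61 over all tested genes. The medians of all genes move with the scaling and the filter, to -1.22 and -1.27 by library totals alone and to -0.04 and -0.05 among genes with a mean of at least 5 CPM. Groups did not overlap for 6 of 8 genes in each comparison, always higher than in Lgr5 cells, where 14.3% and 15.5% of all genes did so. For Il1r1, among the 6, this was lost with library totals alone as the scaling. In WT cells 5 genes for Lrig1 and 4 for Lgr6 were past the same threshold as higher than in Lgr5 cells, where 9.09% and 10.6% of all genes were, and nothing is read from these counts because the genes were chosen with those comparisons known.

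**Figure D2:**
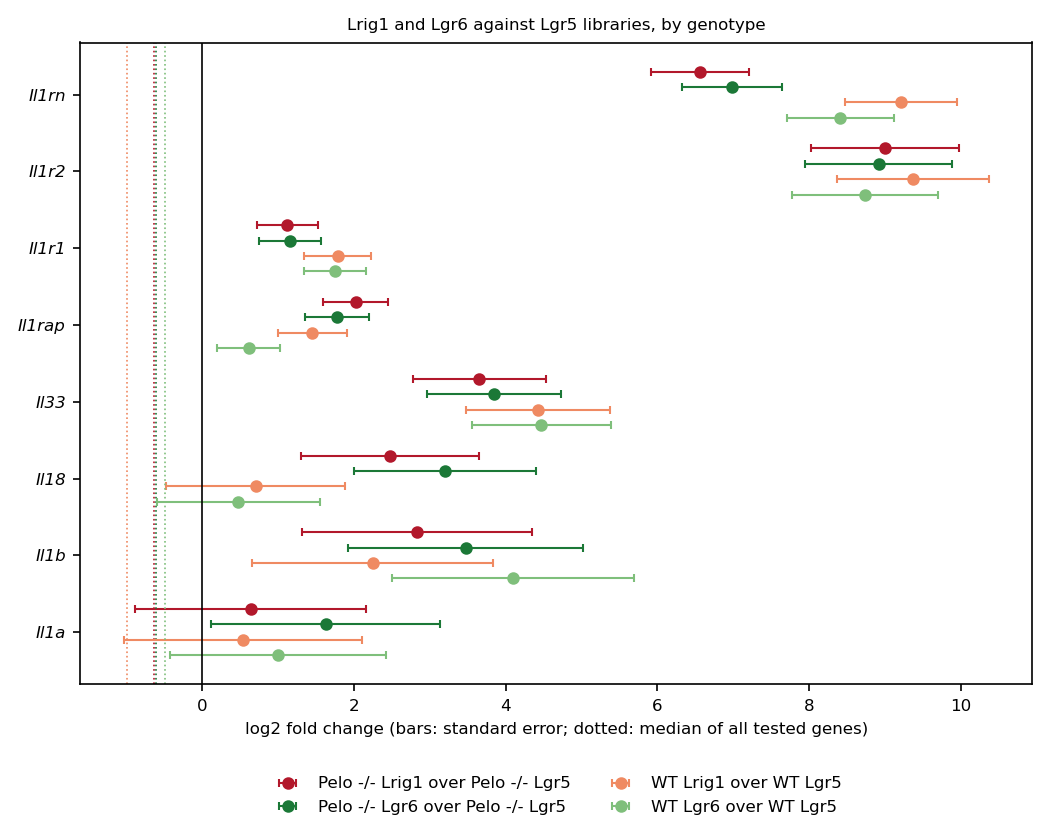
Log2 fold changes (points, with bars for the standard error) of Lrig1 and Lgr6 cells over Lgr5 cells for the 8 genes, in Pelo -/- and WT libraries, with dotted lines at the median of all tested genes. Il1r2 and Il1rn lie between 6.56 and 9.37, Il33 between 3.65 and 4.47, and Il1r1 and Il1rap between 0.61 and 2.02.

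Levels of different genes can be set against each other only per length. The length used was the union of all annotated exons, as the lengths of the transcripts expressed were not measured. On that scale (CPM per kb of exon, median of the 11 Lrig1 and Lgr6 libraries) the order was Il1r2 at 256, Il1rn at 74.3, Il33 at 33.1, Il1r1 at 12.4, Il1rap at 5.08, Il18 at 4.33, Il1b at 2.31 and Il1a at 0.178. The decoy ranged over 123 to 427 and the antagonist over 18.9 to 109, so neighbours at the top of this order did not overlap. Il33 (27.7 to 48.7) overlapped Il1rn but not Il1r1 (6.89 to 17.9), and Il1r1 overlapped Il1rap (2.43 to 8.12). In Lgr5 cells the order differed with the genotype. In Pelo -/- Lgr5 cells Il1r1 had the highest mean at 5.34 ± 1.38 CPM per kb (SD, n = 3), followed by Il33 at 2.52 ± 2.06, Il1rap at 1.51 ± 0.504, Il1rn at 0.619 ± 0.254, Il1r2 at 0.482 ± 0.437 and Il18 at 0.314 ± 0.193. In WT Lgr5 cells Il18 had the highest mean at 4.83 ± 0.364 CPM per kb (SD, n = 3), followed by Il1r1 at 4.12 ± 1.44, whose spread covers it, Il1rap at 2.44 ± 0.939, Il33 at 1.64 ± 2.39, Il1r2 at 0.574 ± 0.638 and Il1rn at 0.172 ± 0.109. Il1b and Il1a were at or below 0.298 CPM per kb in Lgr5 cells of both genotypes. The place of Il18 above Il1r1 in WT Lgr5 cells rests on exon unions of 1031 and 6363 bases. Not divided by length, their means there were 4.98 and 26.2 CPM.

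**Figure D3:**
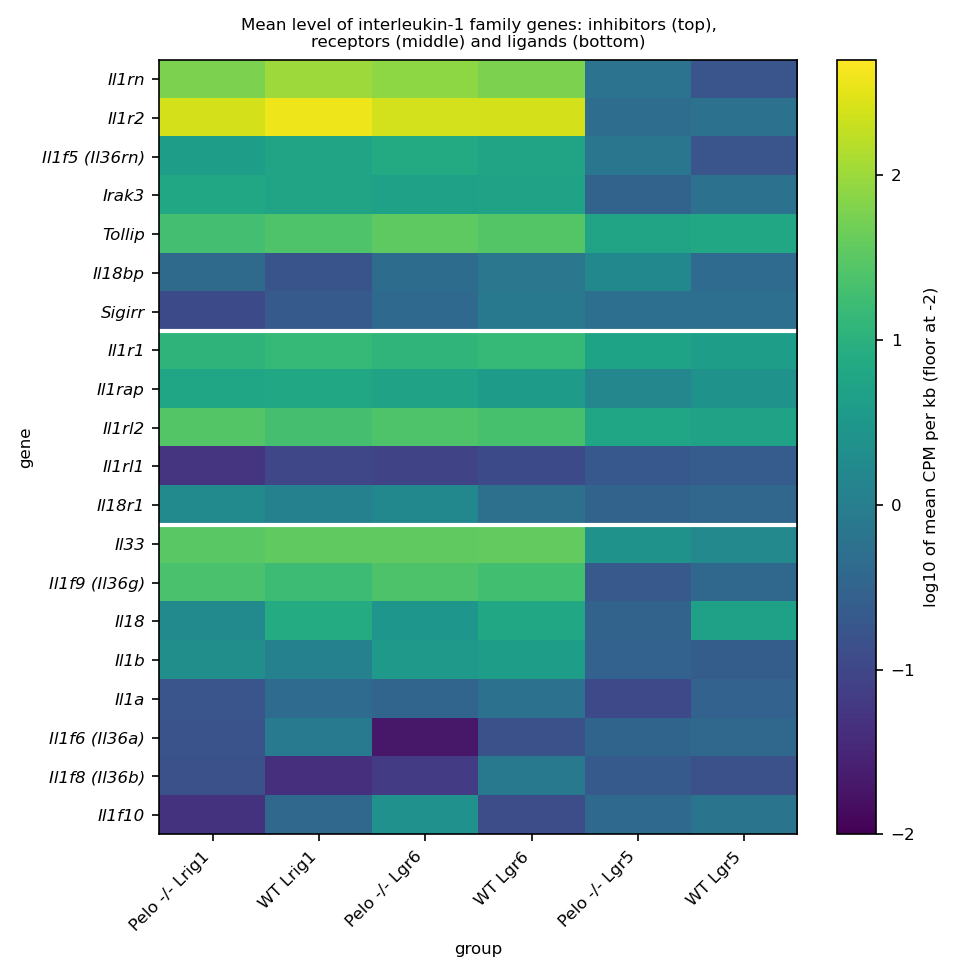
Mean levels of the 8 genes and of other interleukin-1 family genes in the 6 groups, as log10 CPM per kb of exon on a colour scale. Il1r2 and Il1rn have the highest levels of the 8 in the 4 Lrig1 and Lgr6 groups, while Il1r1 has the highest mean of the 8 in Pelo -/- Lgr5 cells and Il18 in WT Lgr5 cells.

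Because both genes of a ratio come from the same library, the antagonist-to-receptor ratios do not depend on scaling between libraries. These ratios were chosen after the values had been seen. Per length, Il1r2 stood at 12.1 to 37.2 times Il1r1 (median 23.2) in the 11 Lrig1 and Lgr6 libraries and at 0 to 0.332 times Il1r1 (median 0.113) in the 6 Lgr5 libraries. Il1rn stood at 2.74 to 7.92 times Il1r1 (median 5.99) in the 11 and at 0.00814 to 0.216 times (median 0.0717) in the 6. Both antagonists thus exceeded the receptor in every Lrig1 and Lgr6 library and in no Lgr5 library. For the accessory chain the order of the populations differed with the genotype. Il1rap over Il1r1 averaged 0.530 in Pelo -/- Lrig1 cells and 0.460 in Pelo -/- Lgr6 cells, both without overlap above the 0.280 of Pelo -/- Lgr5 cells. In WT cells it was 0.408 and 0.524 in the Lrig1 libraries and 0.229 to 0.353 in the Lgr6 libraries, against 0.473 to 0.772 in the Lgr5 libraries, so WT Lgr6 libraries were all below WT Lgr5 libraries. In exact permutation tests, 3 libraries against 3 cannot give a two-sided p below 0.1, so none of the 15 ratio comparisons could pass 0.05.

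**Figure D4:**
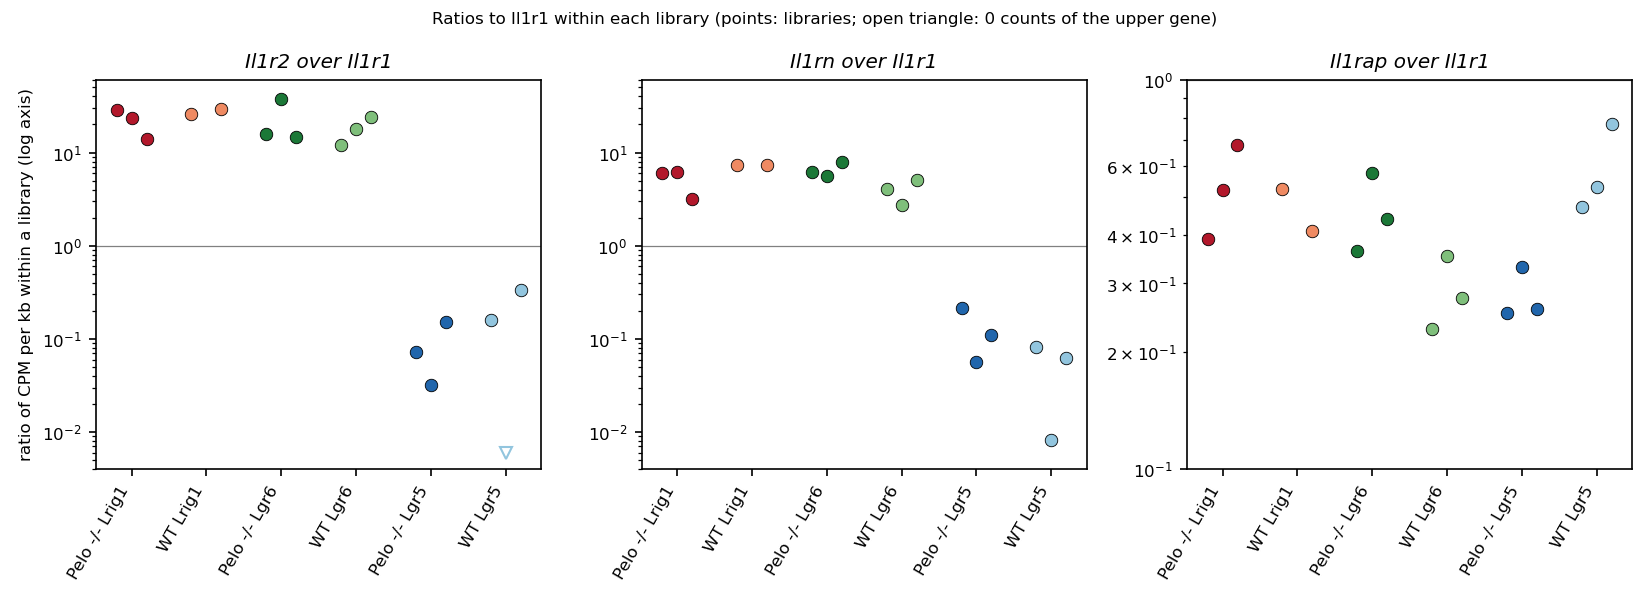
Ratios of Il1r2, Il1rn and Il1rap to Il1r1, per kb of exon, in each library on a log axis, by group. The Il1r2 and Il1rn ratios lie above 1 in all 11 Lrig1 and Lgr6 libraries and below 1 in all 6 Lgr5 libraries, where the open triangle stands for the library with 0 counts of Il1r2.

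Between Lrig1 and Lgr6 cells, with the genotypes averaged, none of the 8 genes was called, as was the case for all 30405 genes (0%, with 1731 at an unadjusted p under 0.05 and 105 called by DESeq2). Il1rap had the largest estimate relative to its error, at 0.54 ± 0.31 on the log2 scale (95% interval -0.09 to 1.18, adjusted p = 0.912, edgeR). The differences of Lrig1 minus Lgr6 had 95% intervals of -0.58 to 0.96 for Il1rn, -0.70 to 1.41 for Il1r2 and -1.35 to 1.12 for Il33.

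The comparison of Pelo -/- with WT cells asked whether loss of Pelo moved these genes within a population. None of the 8 was called in any population by edgeR, where 0% of all genes were called in Lrig1 cells, 0% in Lgr6 cells and 0.0197% in Lgr5 cells. The WT libraries of these comparisons had entered the choice of Il1rn and Il1r2, and a choice for high WT Lrig1 and Lgr6 and low WT Lgr5 values favours lower values of both in mutant Lrig1 and Lgr6 cells and higher values in mutant Lgr5 cells. At an unadjusted p under 0.05 there were 1106, 1180 and 1901 genes, and DESeq2 called 31, 17 and 174. In Lrig1 cells, 4 genes lay lower in every Pelo -/- library than in either WT library (Il1rn, Il1r2, Il1r1 and Il18), as did 10.7% of all genes. T cell markers also stood apart between these groups, at 22.3 to 38.7 CPM in Pelo -/- Lrig1 and 14.0 to 19.3 CPM in WT Lrig1 libraries, and their part in the 4 differences was not tested. For Il1rn that was 211 to 411 CPM in mutant and 540.0 to 605 CPM in WT Lrig1 cells, a log2 fold change of -0.81 ± 0.55 (95% interval -1.95 to 0.33). For Il1r2 it was 318 to 671 CPM in mutant and 729 to 754 CPM in WT cells, at -0.61 ± 0.75 (-2.18 to 0.95). Il1r1 gave -0.29 ± 0.45 (-1.21 to 0.63) and Il18 -2.12 ± 1.19 (-4.58 to 0.34). In Lrig1 cells the signs of Il1rap (-0.12 ± 0.46) and Il33 (-0.16 ± 0.88) turned with library totals as the scaling, to 0.11 and 0.04.

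In Lgr6 cells all 8 genes overlapped between genotypes, where 8.24% of all genes did not. The log2 fold changes of Pelo -/- over WT cells were 0.41 ± 0.50 for Il1rn (95% interval -0.62 to 1.45), 0.47 ± 0.41 for Il1rap (-0.38 to 1.32), -0.22 ± 0.40 for Il1r1 and -0.06 ± 0.68 for Il1r2. Il1r2 changed sign with library totals (0.07), and Il33, at -0.02 ± 0.79, with that and with another scaling (0.08 and 0.06). WT Lgr6 replicate 2 was the lowest of its group for Il1rn, Il1r2, Il1r1, Il1rap and Il33. Without it the estimates were -0.01 for Il1rn, -0.39 for Il1r2, -0.54 for Il1r1 and 0.25 for Il1rap, none of them called.

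In Lgr5 cells 2 genes separated the genotypes, in opposite directions. Il1rn had 4.52, 1.84 and 3.92 CPM in Pelo -/- Lgr5 libraries, against 1.28, 0.256 and 1.31 CPM in WT Lgr5 libraries, from 26 to 77 counts in mutant and 4 to 24 counts in WT libraries. All mutant libraries were above all WT libraries, as for 3.8% of all genes, with a log2 fold change of 1.84 ± 0.57 (95% interval 0.67 to 3.01, adjusted p = 0.474, edgeR). The choice of Il1rn in part for low WT Lgr5 values favours this direction, so neither the separation nor the interval is read as an effect. Il18 had 0.293, 0.142 and 0.537 CPM in Pelo -/- Lgr5 libraries, against 5.21, 4.55 and 5.19 CPM in WT Lgr5 libraries. All mutant libraries were below all WT libraries, as for 4.41% of all genes, at -3.90 ± 1.23 (-6.43 to -1.36, adjusted p = 0.504, edgeR), and DESeq2 called this difference (-4.13, adjusted p = 0.0253). Il1rap was at -0.69 ± 0.42 and Il1r1 at 0.37 ± 0.40, with overlapping libraries. Melanocyte markers (6 of 6 with counts) also stood apart between these groups, at 145 to 309 CPM in Pelo -/- Lgr5 and 53.2 to 125 CPM in WT Lgr5 libraries, and their part in the Il1rn and Il18 differences was not tested.

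**Figure D5:**
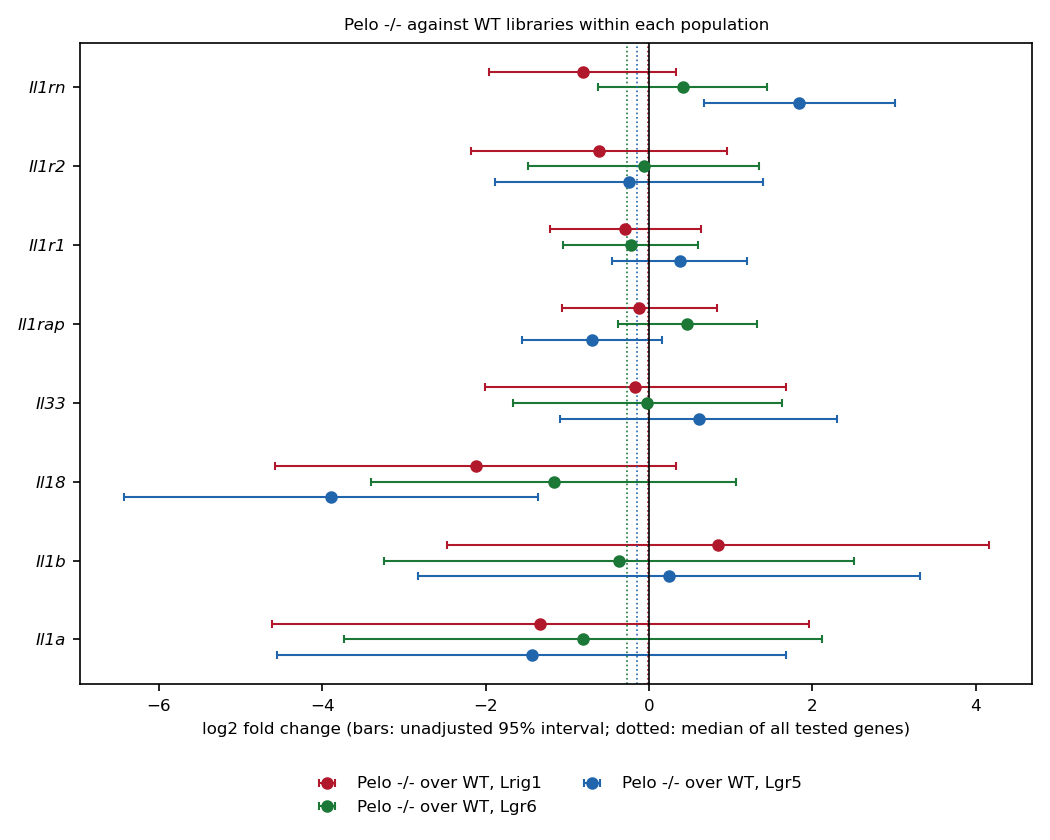
Log2 fold changes with 95% intervals of Pelo -/- over WT cells for the 8 genes in Lrig1, Lgr6 and Lgr5 cells, with dotted lines at the median of all tested genes. The intervals cross 0 except for Il1rn (0.67 to 3.01) and Il18 (-6.43 to -1.36) in Lgr5 cells, and none of the differences passed the threshold after adjustment. The choice of Il1rn in part for low WT Lgr5 values favours its direction in Lgr5 cells.

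The accessory-to-receptor ratio separated the genotypes in 2 populations, in opposite directions. Il1rap over Il1r1 was 0.251, 0.331 and 0.257 in Pelo -/- Lgr5 libraries, against 0.473, 0.532 and 0.772 in WT Lgr5 libraries. It was 0.363, 0.577 and 0.439 in Pelo -/- Lgr6 libraries, against 0.229, 0.353 and 0.275 in WT Lgr6 libraries. The mutant libraries were thus all lower in Lgr5 cells and all higher in Lgr6 cells, each with an exact permutation p of 0.1 (0.167 after adjustment over the 15 comparisons, two-sided), the smallest this design allows. In the count model, the Pelo effect on Il1rap differed between Lgr6 and Lgr5 cells by 1.16 ± 0.59 on the log2 scale (unadjusted p = 0.0581, adjusted p = 1.00, edgeR). Il1rn over Il1r1 was 6.22, 5.67 and 7.92 in Pelo -/- Lgr6 libraries, against 4.10, 2.74 and 5.05 in WT Lgr6 libraries (exact p = 0.1). In Lrig1 cells the order of the genotypes was the other way, at 5.99, 6.14 and 3.19 in Pelo -/- Lrig1 libraries, against 7.32 and 7.27 in WT Lrig1 libraries (exact p = 0.2).

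Other genes of the pathway were read from 6 lists, which were drawn up with earlier results known. Counts and medians of these lists are therefore only a description. Among other ligands, 1 of 4 was called higher in Pelo -/- Lrig1 and in Pelo -/- Lgr6 cells than in Pelo -/- Lgr5 cells. This was Il1f9, the gene of IL-36 gamma, a keratinocyte agonist. It had 61.3, 24.4 and 23.0 CPM in Pelo -/- Lrig1 libraries and 40.0, 29.6 and 53.1 CPM in Pelo -/- Lgr6 libraries, against 0, 0.496 and 0.537 CPM in Pelo -/- Lgr5 libraries, with log2 fold changes of 6.69 ± 0.87 and 6.87 ± 0.88. Of 6 other receptors 1 was called higher in each comparison: Il1rl2, the receptor that IL-36 ligands bind, at 2.22 ± 0.42 and 2.06 ± 0.42.

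The list of other antagonists and negative regulators had 3 of 5 called higher in each comparison and none lower. Il1f5, the gene of the IL-36 receptor antagonist, had 7.52, 37.5 and 12.3 CPM in Pelo -/- Lrig1 libraries and 46.7, 13.4 and 38.7 CPM in Pelo -/- Lgr6 libraries, against 0.998, 1.92 and 6.33 CPM in Pelo -/- Lgr5 libraries. Its log2 fold changes were 2.63 ± 0.78 (adjusted p = 0.0361) and 3.41 ± 0.80 (adjusted p = 0.00610, edgeR). Irak3, a kinase-like protein that restrains receptor signalling, was higher by 4.30 ± 0.86 and 3.96 ± 0.85, and Tollip, an adaptor that does the same, by 1.86 ± 0.40 and 2.64 ± 0.41. The list median was 1.86 and 2.64, beside the all-gene medians of -0.64 and -0.61, and describes only genes that were listed with earlier results known.

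The counts of the lists stand beside 5.77% of all genes called higher in Pelo -/- Lrig1 cells and 7.23% in Pelo -/- Lgr6 cells, and the single calls among 14 signalling and 11 processing genes in Lrig1 cells lay near that share. Of 14 signalling genes, 1 was called higher in Lrig1 cells and 2 in Lgr6 cells among mutants: Irak1, the receptor-proximal kinase, at 1.34 ± 0.42 and 1.45 ± 0.42, and, in Lgr6 cells, Ikbkg, a subunit of the kinase that frees NF-kB, at 1.89 ± 0.53. Of 11 genes for processing and release, Casp4, an inflammatory caspase (mouse caspase-11), was called at 3.51 ± 1.06 and 3.53 ± 1.06. In Lgr6 cells Pycard, the inflammasome adaptor, was also called at 1.50 ± 0.42 and the calpain gene Capn1 at 1.39 ± 0.44, while the calpain gene Capn2 was lower by a log2 fold change of -1.89 ± 0.59. Of 11 tested target genes, 2 were higher in Lrig1 cells and 4 in Lgr6 cells. Nfkbiz, a nuclear cofactor of NF-kB, was at 2.12 ± 0.42 and 2.52 ± 0.42, and the neutrophil chemokine gene Cxcl1 at 4.81 ± 1.47 and 6.13 ± 1.53. The feedback inhibitors Nfkbia and Tnfaip3 were called in Lgr6 cells at 2.07 ± 0.43 and 3.24 ± 0.64. The calls of Irak1, Ikbkg, Casp4, Pycard, Capn1 and Capn2, and in Lrig1 cells those of Cxcl1 and Il1f5, were each lost in 3 to 6 of the 6 fits that left out a library of the pair, and the other 14 calls in the 6 lists were lost in none of them. None of the 6 lists held a gene called by edgeR between genotypes within a population or between Lrig1 and Lgr6 cells.

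The genes whose profile over the 17 libraries was most like that of a member were found by the root mean square difference of centred log2 CPM, among 7740 genes. For Il1rn these were Oas1f (0.647), Skint7 (0.734) and Casp14 (0.771). For Il1r2 they were Ly6a (0.938), Mt4 (0.938) and Pyy (0.973), and for Il33 Mcu (0.700), Tent5a (0.762) and Slc6a2 (0.851). Il1r1 and Il1rap varied less, with Ndfip1 (0.288), Cr1l (0.290) and Nek7 (0.291) nearest to Il1r1 and Dpp7 (0.348), Ttc39b (0.364) and Retreg1 (0.387) nearest to Il1rap. Il1rn and Il1r2 differed from each other by 1.13 and Il1r1 and Il1rap by 0.496, so each had other genes closer to it than its partner. For Il18, Il1b and Il1a the nearest genes stood at 1.04 to 1.68.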

How the data were processed

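RNA-seq counts were read for 17 libraries of sorted mouse epidermal cells in 6 groups. The authors deposited whole-number counts per gene, used here as deposited. STAR, edgeR and the builds GRCm38 and mm10 appear, with no versions, in the submitters' processing notes. The sources used here give neither the counting tool, annotation release and strand setting nor how shared reads were treated. Of 48820 identifiers, 48058 matched GENCODE M21 (GRCm38) without version and 762 did not.

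The 8 members and all gene lists were chosen with earlier results of these data known. Genes were kept by edgeR 4.0.16's filter (minimum count 10, minimum total 15; 30405 genes) and scaled by TMM. A quasi-likelihood model (glmQLFit, robust, R 4.3.3) had 1 coefficient per group over all 17 libraries, and p-values were adjusted by Benjamini-Hochberg over all genes tested, with calls under 0.05. CPM are counts over library totals multiplied by the TMM factors, and CPM per kb used the union of GENCODE exons. Ratios were compared by exact permutation (scipy 1.17.1). Alternatives used RLE size factors within edgeR, DESeq2 1.42.0, limma 3.58.1 voom, no filter and a mean of at least 5 CPM. Others used a replicate block, only the groups compared, and each library left out. Scaling by library totals alone was added after seeing the data. The model was also run on simulated data for Pelo -/- Lgr6 against WT Lgr6 cells only. That simulation held no population differences and changed only genes above 5 CPM, so nothing is read from it here. All 8 members are named, with up to 4 called genes per pathway list by smallest p, and the 3 nearest profiles per member. Nothing in the labels ties replicates to separate mice, so p-values measure the spread between these libraries, which may be technical. Replicates of a group differed by a chi-square per degree of freedom of at least 21.3, so none was a copy. Library totals (9647507 to 28098841 counts) set the precision, and floors cover counting error only.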

Additional observations from a re-analysis of the deposited data

Results flagged for a closer look

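The Pelo effect on Il1rn differed between Lrig1 and Lgr5 cells in the direction of every library. All 3 Pelo -/- Lrig1 libraries (211 to 411 CPM) were below both WT Lrig1 libraries (540.0 and 605 CPM), and all 3 Pelo -/- Lgr5 libraries (1.84 to 4.52 CPM) were above all 3 WT Lgr5 libraries (0.256 to 1.31 CPM). The difference between the effects, Lrig1 minus Lgr5, was -2.65 ± 0.79 on the log2 scale (SE), and ran from -2.95 to -2.10 over the alternatives. It was not called after adjustment over all genes under any of them. It holds the difference of WT Lrig1 and WT Lgr5 cells, on which Il1rn was in part chosen, with a minus sign, so a negative value is favoured by that choice and no p-value is given. The Lgr5 side rests on 4 to 77 counts per library.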

How the results depend on the processing

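Over 8 other settings and 17 libraries left out in turn, 1127 of 1136 values of the 8 genes in the 9 tested comparisons kept their side of the threshold, 6 lost a call and 3 gained one. Only the 4 genes called in each Pelo -/- comparison with Lgr5 cells had a call to lose. The total therefore says little of how firmly those calls held, and the 6 losses were all of Il33 or Il1rap. Of all 1136 values, called or not, 0 changed sign with a call in the main fit or in the alternative. Some values that were not called did change sign. By library totals alone, Pelo -/- Lgr6 over Pelo -/- Lgr5 cells had 2 genes called, with Il33 (3.33, adjusted p = 0.0651) and Il1rap lost. Il33 in Pelo -/- Lrig1 cells was lost by totals (3.20, adjusted p = 0.0843) and with no filter (3.75, adjusted p = 0.0580). DESeq2 called 1 gene, Il18, between Pelo -/- and WT Lgr5 cells, and Il18 was also gained in Pelo -/- Lgr6 over Lgr5 cells with no filter (3.36, adjusted p = 0.0256). In the WT comparisons, whose counts only describe genes chosen with them known, Lrig1 over Lgr5 had 3 genes past the threshold at a mean of at least 5 CPM, 3 with only the groups compared and 2 by totals, and Lgr6 over Lgr5 had 2 by totals. With a library left out, the counts were 3 to 4 in both Pelo -/- comparisons with Lgr5, 3 to 5 in WT Lrig1 and 3 to 4 in WT Lgr6 over WT Lgr5 cells. The cause of these shifts was not tested.

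Same-numbered libraries did not deviate together more than others (correlation -0.237 to 0.240, median -0.00164, 40 pairs). Pairs with different numbers had -0.298 to 0.263 (median 0.000837, 80 pairs). The numbers thus gave no sign of pairing, though groups of 2 or 3 libraries cannot exclude it. A replicate block changed no call of the 8 genes and gave -2.81 for the Il1rn difference of Pelo effects. Of the 24 calls of other pathway genes, 14 held under every left-out library and every setting that gave a value.

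Counts over all genes moved more. DESeq2 called 4475 and 5113 genes in Pelo -/- Lrig1 and Lgr6 over Lgr5 cells, against 2386 and 3026 by edgeR, with 1366 to 2630 and 1990 to 3262 when a library was left out. In WT cells DESeq2 called 7206 and 6152, against 3369 and 3713, with 2152 and 2409 in fits of only the groups compared, and 1294 to 3883 and 1932 to 3355 with a library left out. For Pelo -/- over WT Lgr5 cells edgeR's 6 became 80 with no filter, 0 by voom, 2 with the block, 2 by totals and 8 to 20 with a library left out. Lrig1 minus Lgr6, with 0 calls by edgeR, had 45 with no filter and 1 to 7 under the settings other than that and DESeq2, and Pelo -/- over WT had 5 in Lrig1 and 1 in Lgr6 cells with no filter. The differences of Pelo effects had 62, 56 and 50 genes called by DESeq2 (Lrig1 minus Lgr5, Lgr6 minus Lgr5, Lrig1 minus Lgr6). Low counts limit Il1a, Il1b and Il18.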
